A study of Mus musculus with 12 samples.

Results

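Matricellular proteins are secreted into the extracellular matrix, where they change how cells attach and respond to growth factors more than they bear load. The 9 genes described here are Tnc, Fn1, Thbs1, Thbs2, Postn, Sparc, Spp1, Spon1 and Spon2, taken as a named list by gene symbol from the 55414 Ensembl identifiers of the count table. All 9 were found, 8 passed the filter on low counts, and Spon1 did not. The list was drawn up with earlier results of these libraries known, and which contrast chose each gene is not recorded. Tnc heads the list and is the one gene called for a line difference that changes between days, so it is treated as selected on its levels in all 4 groups. Every value of Tnc is therefore a description without a p-value, and nothing is read from its calls where they are counted. The p-values of the other genes place them in a test over all genes and are not independent evidence.

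The cells were 3T3-L1, mouse preadipocytes that turn into fat cells under hormones; the labels give their type as mesenchymal stem cells. Cells overexpressed FHL2-GFP or carried CTRL-GFP, here called FHL2 and control. FHL2 is a LIM-domain cofactor of transcription, and the series title places it with NFAT5, a factor that responds to osmotic stress. The 4 groups were FHL2 at day 2, control at day 2, FHL2 at day 0 and control at day 0, with 3 libraries each. Day 0 cells were post-confluent and uninduced. Day 2 cells had received 170 nM insulin, 1 µM dexamethasone and 0.5 mM isobutylmethylxanthine in serum. No uninduced day 2 cells are among the samples, so effects of induction, of time and of batch cannot be told apart. The labels do not say whether the libraries of a group came from separate cultures or how many clones made up a line, and the p-values rest on the spread among the libraries alone, which may be technical. In bulk RNA, fewer cells of a type and less RNA per cell cannot be told apart.

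Libraries held 10047708 to 21872139 counts. Day 2 libraries detected 12689 to 16131 genes and day 0 libraries 17977 to 18811. The 3 lowest were FHL2 replicates 1 and 2 and control replicate 3 of day 2. Mouse Fhl2 itself did not separate the lines, with 17.1 ± 6.49 in FHL2 against 16.3 ± 4.03 CPM in control at day 2, and 62.7 ± 4.35 against 61.2 ± 2.40 CPM at day 0 (SD, n = 3 each). The labels do not say whether transcripts of the construct are counted at this gene, so directions between lines follow the labels. Of 9 preadipocyte or fibroblast markers, 8 or 9 averaged at least 1 CPM in every group. The summed level of 7 adipocyte markers was 121 to 147 CPM in FHL2 and 171 to 223 CPM in control at day 2, and 24.4 to 26.1 CPM in FHL2 and 25.6 to 30.9 CPM in control at day 0, where Plin1, Adipoq and Cidec were at 0. It was thus lower in FHL2 at day 2, beside the line differences of that day, and its part in them was not tested. The macrophage markers Ptprc and Adgre1 were at 0 in both day 2 groups and in FHL2 at day 0, and Adgre1 was also at 0 in control at day 0. The summed level of 7 macrophage or blood markers ran from 9.35 to 19.5 CPM over all libraries. Cd14 averaged 13.8 CPM in FHL2 and 10.1 CPM in control at day 2, and 4.15 and 4.86 CPM at day 0. Lyz2 went the other way, with 1.66 CPM in FHL2 and 0.892 CPM in control at day 2, and 8.80 and 5.57 CPM at day 0.

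As background, the family acts in layers. Fibronectin (Fn1) is the scaffold that cells assemble first, and tenascin C (Tnc), thrombospondins (Thbs1, Thbs2), periostin (Postn), osteonectin (Sparc), osteopontin (Spp1) and spondins (Spon1, Spon2) modify what is built on it. Preadipocytes remodel this matrix as they round up and store fat, and Sparc and Thbs1 are known as restraints on fat tissue or vessels. Levels are CPM, the counts of a gene scaled to a common library size after TMM normalization. Changes are log2 ratios with their standard error (SE), and genes below an adjusted p of 0.05 count as called.

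Tenascin C, a hexameric glycoprotein that loosens cell attachment to fibronectin, was lower in FHL2 than in control cells at day 2 and higher at day 0. The Tnc gene (ENSMUSG00000028364) lies on chromosome 4. At day 2 its level was 206, 186 and 162 CPM in the FHL2 libraries, against 375, 408 and 292 CPM in the control libraries. At day 0 it was 417, 471 and 457 CPM in FHL2, against 359.9, 341 and 361 CPM in control. All FHL2 libraries were below all control libraries at day 2 and above them at day 0, so the order of the lines turned round. The day 0 difference was not called, and libraries of the lines did not overlap for 21.6% of all genes at day 0 and 14.7% at day 2. The groups averaged 185 ± 22.4 CPM in FHL2 and 359 ± 59.7 CPM in control at day 2, then 448 ± 28.1 CPM in FHL2 and 354 ± 11.3 CPM in control at day 0 (SD, n = 3 each).

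**Figure D1:**
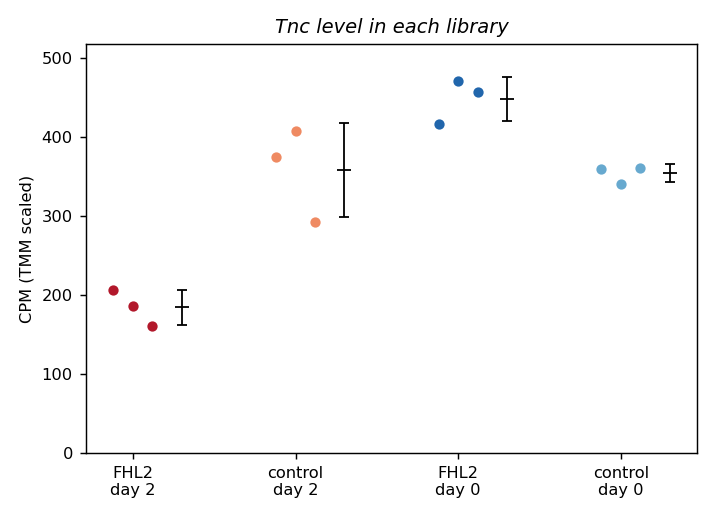
Tnc level in CPM (vertical axis, from 0) in each library (points) of the 4 groups, with the group mean and SD as a bar beside the points. The FHL2 day 2 libraries lie between 162 and 206 CPM, below the libraries of the other 3 groups, which lie between 292 and 471 CPM.

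The log2 change of Tnc, FHL2 over control, was -0.96 (SE 0.12) at day 2 and 0.34 (SE 0.12) at day 0. Day 2 over day 0, it was -1.28 (SE 0.12) in FHL2 and 0.02 (SE 0.12) in control. Tnc thus stood at 0.412 times its day 0 level in FHL2 cells and at 1.01 times in control cells. The difference between the line contrasts, day 2 minus day 0, was -1.30 on the log2 scale (SE 0.17). In this contrast 1 of 14435 genes tested was called (0.00693%), and that gene was Tnc. Since these same values chose Tnc, nothing is read from the call, which was also lost without any 1 of 9 of the 12 libraries. Over the 12 fits with 1 library left out, the value lay between -1.47 and -1.21. The lowest count of Tnc was 2625, where counting error alone is 1.95%. An offset that follows the GC content of genes left the line contrasts near these values (-0.97 at day 2 and 0.32 at day 0). It moved the change in control cells to -0.42 and that in FHL2 cells to -1.71. The control change was thus 0.02 without the offset and -0.42 with it, so a flat level in control depends on this choice.

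Promoter windows are shown for the genes of this family whose listed start lies within 100 bases of the main annotated start. They cover Tnc, which separates the lines, and Thbs2, Postn and Spp1, which were lower at day 2 in both. Each is the 250 bases before the start in RefSeq's table for GRCm38.p6, printed 5′ to 3′ on the strand of the gene. The windows are Tnc at chr4:64047016-64047265 (minus strand), Thbs2 at chr17:14694263-14694512 (minus strand), Postn at chr3:54360857-54361106 (plus strand) and Spp1 at chr5:104434861-104435110 (plus strand). The counts themselves refer to GRCm39. A symbol match was found for 5 of the 9 genes. Capitals mark matches, on either strand, to 5 motifs, namely TATAAA (the core promoter box bound by TBP), TGANTCA (the site of AP-1 factors), GGGCGG (the box bound by SP1), AACCACA (the site of RUNX factors) and TGGAAA (the core that opens NFAT sites). No marked matches overlap in these windows.
Tnc: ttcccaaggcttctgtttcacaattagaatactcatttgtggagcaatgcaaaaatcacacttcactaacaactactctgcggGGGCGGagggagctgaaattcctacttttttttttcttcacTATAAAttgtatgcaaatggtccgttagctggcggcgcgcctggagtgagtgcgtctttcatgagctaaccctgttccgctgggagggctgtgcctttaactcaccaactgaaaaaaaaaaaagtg
Thbs2: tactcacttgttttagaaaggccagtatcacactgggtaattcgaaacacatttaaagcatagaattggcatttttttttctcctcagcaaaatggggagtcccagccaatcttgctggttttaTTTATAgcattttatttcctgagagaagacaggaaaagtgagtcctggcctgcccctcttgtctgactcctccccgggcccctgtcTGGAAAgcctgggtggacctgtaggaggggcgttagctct
Postn: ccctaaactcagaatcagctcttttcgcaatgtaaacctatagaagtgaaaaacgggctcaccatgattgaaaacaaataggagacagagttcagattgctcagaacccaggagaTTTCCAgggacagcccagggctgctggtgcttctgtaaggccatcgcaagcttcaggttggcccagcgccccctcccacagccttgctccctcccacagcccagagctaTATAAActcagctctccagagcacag
Spp1: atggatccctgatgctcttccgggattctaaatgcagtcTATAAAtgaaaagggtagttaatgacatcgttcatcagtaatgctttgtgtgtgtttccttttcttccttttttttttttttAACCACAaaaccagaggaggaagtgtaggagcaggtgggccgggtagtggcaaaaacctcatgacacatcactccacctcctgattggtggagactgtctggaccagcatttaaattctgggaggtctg
TATAAA occurred in all 4 windows, and in 12.4% of the 32851 promoter windows of the table. TGGAAA occurred in the Thbs2 and Postn windows and in 18.6% of all. GGGCGG occurred in the Tnc window (32.7% of all) and AACCACA in the Spp1 window (4.40% of all). TGANTCA, found in 6.75% of all windows, was in none of the 4. In Postn the TATAAA letters ended 21 bases before the start, and in the other windows they lay more than 100 bases before it. A match is only a run of letters.

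Spondin 2 (Spon2), a secreted spondin that binds integrins and bacterial surfaces in innate immunity, was lower in FHL2 cells on both days and higher at day 2 in both lines. Its level was 156, 185 and 152 CPM in FHL2 at day 2, against 252, 292 and 216 CPM in control at day 2. Day 0 levels were 14.7, 16.0 and 12.7 CPM in FHL2, against 31.6, 33.5 and 31.4 CPM in control. No FHL2 library reached any control library of its day, and no day 0 library reached any day 2 library. FHL2 over control, Spon2 fell, with a log2 change of -1.15 at day 0 (SE 0.13, edgeR adjusted p = 0.00354) and -0.63 at day 2 (SE 0.13, adjusted p = 0.0210). The day 0 call was lost without FHL2 replicate 3 of day 0 (adjusted p = 0.0502). The day 2 call was lost without FHL2 replicates 1 or 3 or control replicates 1 or 2 of day 2 (adjusted p = 0.0507, 0.0571, 0.0680 and 0.0769) and in a fit of the day 2 libraries alone (0.106). Day 2 over day 0, Spon2 rose 11.4-fold in FHL2 (log2 3.50, SE 0.14, adjusted p = 3.35e-10) and 7.88-fold in control (log2 2.98, SE 0.14, adjusted p = 8.32e-10). The difference between these rises, 0.53 on the log2 scale (SE 0.18), did not pass (adjusted p = 0.592). The related Spon1, which encodes the floor plate protein F-spondin, had 1 count in all, in control replicate 2 of day 0. The floor of 3 counts in a library is 0.137 to 0.299 CPM, so its expression was not detectable at this depth.

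In the comparison of FHL2 with control, 2 of 8 members were called at day 2, Tnc and Spon2, both lower, where 2.07% of all genes were called, 0.720% higher and 1.35% lower. At day 0, 1 of 8 was called, Spon2, lower, where 0.0485% of all genes were called, 0.0208% higher and 0.0277% lower. Their libraries did not overlap between lines for 5 of 8 members at day 2 (14.7% of all genes) and for 3 of 8 at day 0 (21.6%). The median log2 change of the 8 members was -0.34 at day 2 and 0.01 at day 0, beside 0.01 and -0.02 over all genes. The list was chosen with these contrasts known, so nothing is read from these shares.

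**Figure D2:**
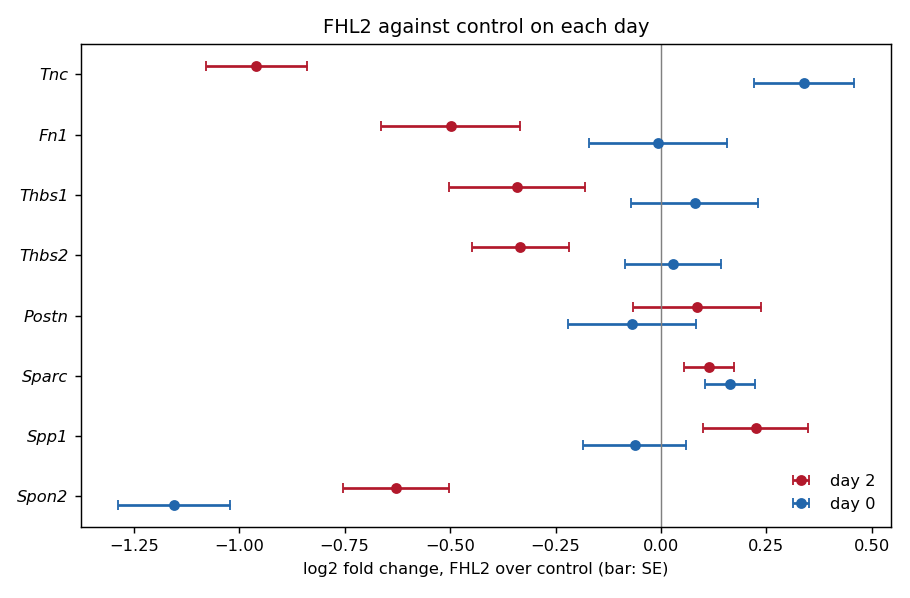
Log2 fold change of FHL2 over control (horizontal axis) for the 8 tested genes, at day 2 (red) and day 0 (blue), with SE as bars. Tnc lies at -0.96 at day 2 and 0.34 at day 0, and Spon2 lies below 0 on both days.

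Fibronectin (Fn1), the scaffold protein bound by several integrins, had the highest read level of the members. Its level was 7058, 6251 and 4037 CPM in FHL2 at day 2, against 8828, 8348 and 7336 CPM in control at day 2. Its day 0 levels were 4476, 6268 and 5592 CPM in FHL2, against 5343, 5287 and 5795 CPM in control. The FHL2 day 2 libraries were spread most widely and all lay below control at day 2, while the lines overlapped at day 0. The log2 change of FHL2 over control was -0.50 at day 2 (SE 0.16, adjusted p = 0.126) and -0.01 at day 0 (SE 0.16, adjusted p = 1.00), and neither passed. Within 2 SE, Fn1 in FHL2 at day 2 was between 0.564 and 0.888 times control. The day 2 difference was called without a filter on low counts (log2 -0.50, adjusted p = 2.72e-08). It was also called when the 3 day 2 libraries that detected fewest genes were left out (log2 -1.12, adjusted p = 0.00186), which leaves FHL2 replicate 3, the lowest, as the one FHL2 library. A replicate block in the day 2 libraries alone also gave a call (log2 -0.53, adjusted p = 0.0302), and without FHL2 replicate 3 of day 2 the value was -0.31 (adjusted p = 0.228). Day 2 over day 0, Fn1 rose in control (log2 0.58, SE 0.16, adjusted p = 0.00770) and measured 0.09 in FHL2 (SE 0.16, adjusted p = 0.680), and the difference between the lines did not pass (log2 -0.49, SE 0.23, adjusted p = 0.724). With the GC offset the control rise was no longer called (log2 0.12, adjusted p = 0.622) and the FHL2 value turned to -0.37 (adjusted p = 0.0983).

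The thrombospondins, trimeric or larger glycoproteins that bind CD36 and CD47 and restrain vessel growth, fell at day 2 in both lines. Thbs1, which also activates latent TGF-beta, had 31.3, 19.3 and 30.1 CPM in FHL2 at day 2, against 35.7, 37.8 and 28.6 CPM in control at day 2. At day 0 it had 235, 232 and 247 CPM in FHL2, against 236, 203 and 236 CPM in control. The days were far apart and the lines overlapped on each. Day 2 over day 0, Thbs1 fell in both lines, with a log2 change of -3.14 in FHL2 (SE 0.17, adjusted p = 4.43e-09) and -2.72 in control (SE 0.16, adjusted p = 1.23e-08). These falls were the steepest among the members and were nearly the same with the GC offset (-3.18 and -2.76).

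Thbs2 had 159.9, 136 and 129 CPM in FHL2 at day 2, against 196, 147 and 193 CPM in control at day 2. Day 0 values were 484, 532 and 514 CPM in FHL2, against 526, 462 and 511 CPM in control. Again the days were separate and the lines overlapped. Its log2 change was -1.85 in FHL2 (SE 0.12, adjusted p = 2.38e-08) and -1.48 in control (SE 0.12, adjusted p = 1.33e-07), and -1.47 and -1.08 with the GC offset (adjusted p = 7.21e-07 and 1.38e-05). FHL2 over control at day 2, the log2 change was -0.34 for Thbs1 (SE 0.16, adjusted p = 0.286) and -0.33 for Thbs2 (SE 0.12, adjusted p = 0.145). Within 2 SE, the FHL2 level was 0.632 to 0.988 times control for Thbs1 and 0.676 to 0.931 times for Thbs2. The Thbs1 range lies below the control level although its unadjusted edgeR p was 0.0531. Neither passed the test, and without FHL2 replicate 2 of day 2 the Thbs1 value was -0.16. At day 0 the ratios were 1.06 for Thbs1 and 1.02 for Thbs2 (adjusted p = 1.00 each).

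Periostin (Postn), a fasciclin-domain protein that helps cross-link collagen, had 1121, 1002 and 854 CPM in FHL2 at day 2, against 1032, 816 and 959 CPM in control at day 2. Its day 0 values were 4103, 3066 and 3212 CPM in FHL2, against 4248, 3808 and 2830.0 CPM in control. Each line's day 2 libraries were all below its day 0 libraries, and the lines overlapped on both days. Postn had a log2 change of -1.80 in FHL2 (SE 0.16, adjusted p = 3.52e-07) and -1.96 in control (SE 0.16, adjusted p = 1.59e-07). With 41.9% GC, Postn is the most GC-poor of the members, and the GC offset left log2 changes of -0.22 in FHL2 and -0.23 in control, neither of them called (adjusted p = 0.0579 and 0.0504). The share of its day change that goes with base composition was not tested further. FHL2 over control, the log2 change was 0.08 at day 2 (SE 0.15, adjusted p = 0.819) and -0.07 at day 0 (SE 0.15, adjusted p = 1.00). Within 2 SE the day 2 ratio was 0.860 to 1.31, and the day 2 value turned to -0.01 without FHL2 replicate 1 or control replicate 2 of day 2.

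Osteopontin (Spp1), a phosphoprotein ligand of integrins and CD44 that is also made by macrophages and bone cells, had 110.1, 104 and 122 CPM in FHL2 at day 2, against 90.4, 97.1 and 100.1 CPM in control at day 2. At day 0 it had 303, 286 and 261 CPM in FHL2, against 295, 351 and 242 CPM in control. The FHL2 libraries were all above control at day 2, and the lines overlapped at day 0. Spp1 had a log2 change of -1.34 in FHL2 (SE 0.12, adjusted p = 6.80e-07) and -1.63 in control (SE 0.13, adjusted p = 1.19e-07). With the GC offset the falls were smaller but still called (log2 -0.45 and -0.68, adjusted p = 0.00474 and 0.000233). FHL2 over control at day 2, the log2 change of 0.22 (SE 0.12) did not pass (adjusted p = 0.363), and the 2 SE range was 0.983 to 1.39 times control. Without FHL2 replicate 3 of day 2 it was 0.14. Beside Spp1, 6 bone markers summed to 27.1 to 41.8 CPM at day 2 and 80.2 to 91.1 CPM at day 0. Most of this sum was Runx2, a transcription factor, with means of 27.9 CPM in FHL2 and 28.7 CPM in control at day 2, and 77.4 CPM in FHL2 and 82.8 CPM in control at day 0. Phex was also lower at day 2, with 1.33 CPM in FHL2 and 1.72 CPM in control, against 6.55 and 7.38 CPM at day 0. Alpl went the other way in control, with 4.61 CPM at day 2 against 0.196 CPM at day 0, and Bglap was at 0 in all groups. Their part in the Spp1 change was not tested.

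Osteonectin (Sparc), a calcium- and collagen-binding protein of bone and fibroblast matrix, varied least over the libraries. It had 2598, 2507 and 2561 CPM in FHL2 at day 2, against 2301, 2385 and 2399 CPM in control at day 2. At day 0 it had 2901, 2917 and 3082 CPM in FHL2, against 2617, 2617 and 2707 CPM in control. FHL2 libraries were above control libraries on both days, and the day 2 libraries were below the day 0 libraries in each line. FHL2 over control, the log2 change was 0.11 at day 2 (SE 0.06, adjusted p = 0.333) and 0.16 at day 0 (SE 0.06, adjusted p = 0.843), and neither passed. Day 2 over day 0, Sparc had a log2 change of -0.22 in FHL2 (SE 0.06, adjusted p = 0.00648) and -0.16 in control (SE 0.06, adjusted p = 0.0277). With the GC offset the falls were larger (log2 -0.68 and -0.63, adjusted p = 7.12e-07 and 1.48e-06). The call was lost under 3 of 17 alternatives in FHL2 and 9 of 17 in control. Upper-quartile scaling ended both calls (log2 -0.13 and -0.07, adjusted p = 0.138 and 0.463). The FHL2 call was lost without FHL2 replicate 2 of day 2 (0.0675), and the control call without control replicate 3 of day 0 (0.0649) or control replicates 1, 2 or 3 of day 2 (0.169, 0.111 and 0.231).

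**Figure D3:**
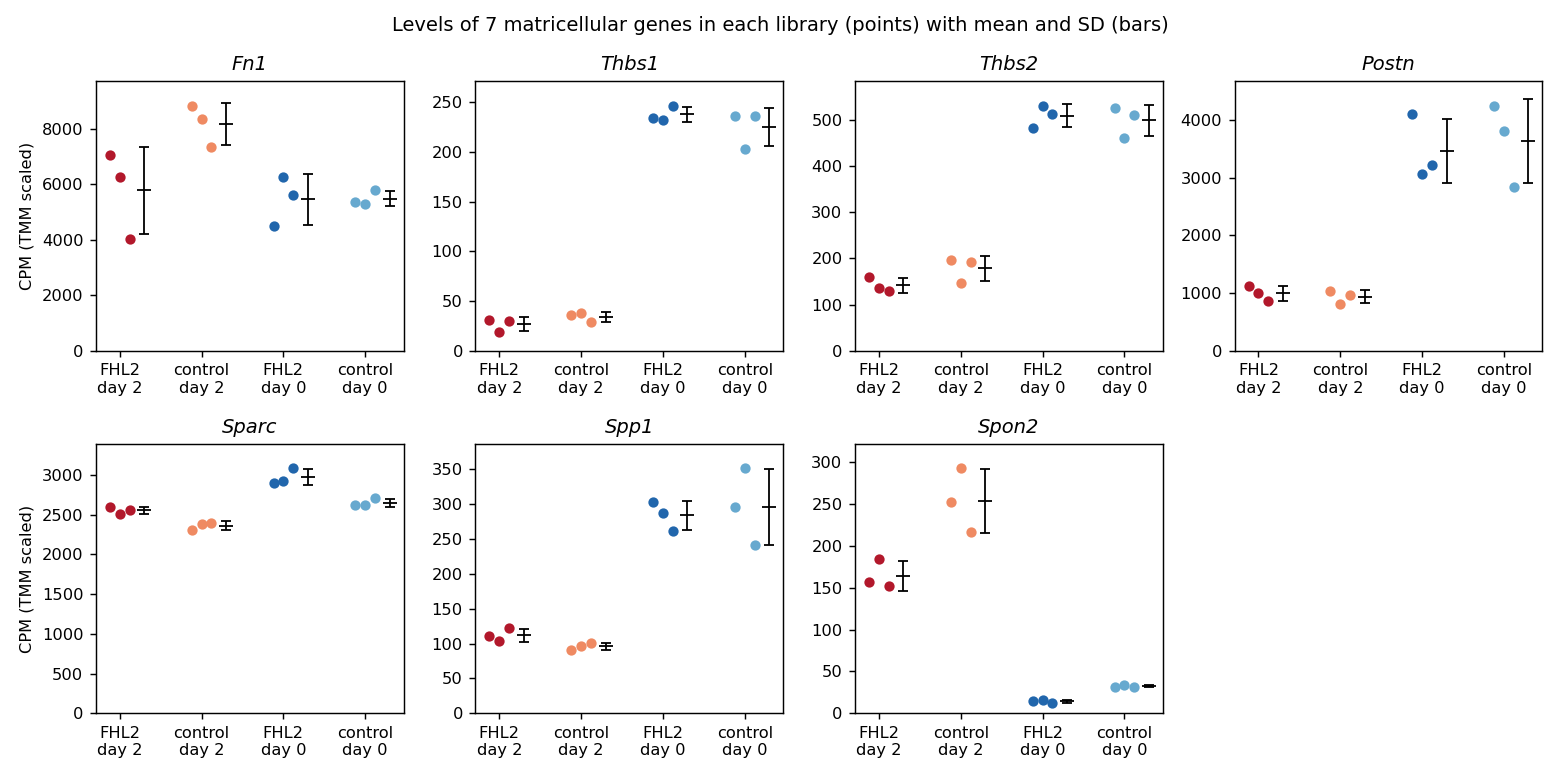
Level in CPM (vertical axes, each from 0 and each with its own scale) of 7 members in each library (points) of the 4 groups, with mean and SD as bars. Thbs1, Thbs2, Postn and Spp1 are lower at day 2, Spon2 is higher, and Sparc stays between 2301 and 3082 CPM.

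Day 2 against day 0, 6 of 8 members were called lower and 1 higher in FHL2, and 5 were called lower and 2 higher in control. Tnc and Sparc are among the members called lower in FHL2, and Fn1 and Spon2 are the ones called higher in control. Over all genes, 56.0% were called in FHL2 (25.8% higher and 30.2% lower) and 57.1% in control (26.3% higher and 30.8% lower). Libraries did not overlap for 7 of 8 members in each line, beside 66.2% of all genes in FHL2 and 68.7% in control. The median log2 change of the 8 members was -1.31 in FHL2 and -0.82 in control, beside -0.11 and -0.14 over all genes. The members took 0.735% to 1.08% of all counts in FHL2 at day 2 and 1.06% to 1.19% in control at day 2. At day 0 they took 1.40% to 1.51% in FHL2 and 1.41% to 1.45% in control.

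**Figure D4:**
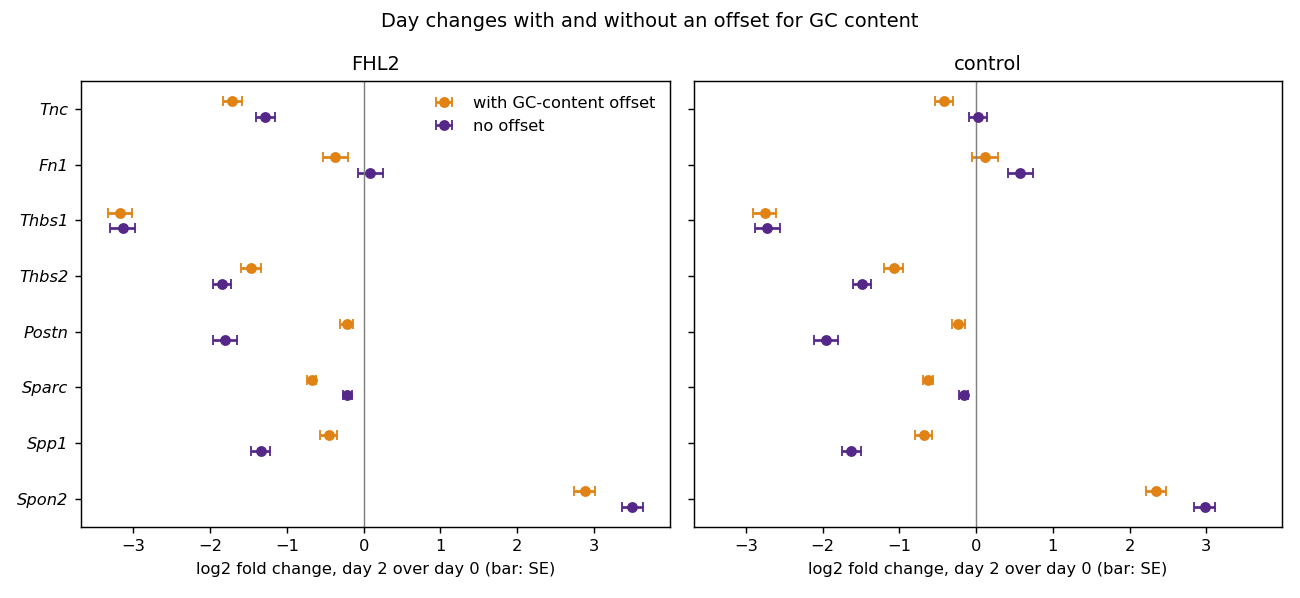
Log2 fold change of day 2 over day 0 (horizontal axis) for the 8 tested genes in FHL2 (left) and control (right), with a GC-content offset (orange) and without it (purple), with SE as bars. Thbs1 hardly moves with the offset, Postn in FHL2 lies at -0.22 with it and at -1.80 without it, and Spon2 stays above 2 in both lines.

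The GC offset is a function of GC content alone, so a shift of the members by base composition is built in and is no finding. The GC-poor members Postn (41.9% GC), Spp1 (45.2%) and Thbs2 (47.7%) moved up, Thbs1 hardly moved, and Tnc (52.9%), Fn1 (53.1%), Sparc (53.2%) and Spon2 (55.5%) moved down. Between the lines it moved no member by more than about 0.1 on the log2 scale, and Postn at day 0 turned to 0.03.

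Per kilobase of exon, Sparc and Fn1 led in every group. Length here is the union of all annotated exons of a gene, 3788 bases for Sparc, 11685 for Fn1 and 8702 for Postn. It can exceed the length of the transcripts present, which was not measured, so the order between genes holds for this length only. In FHL2 at day 2 the mean levels were 674 ± 12.1 CPM per kilobase for Sparc, 495 ± 134 for Fn1, 114 ± 15.4 for Postn, 67.9 ± 5.69 for Spp1, 55.7 ± 6.06 for Spon2, 23.7 ± 2.88 for Tnc, 20.2 ± 2.30 for Thbs2 and 4.43 ± 1.09 for Thbs1 (SD, n = 3). In this order only Tnc and Thbs2 overlapped as neighbours. In control at day 2, Fn1 (699 ± 65.2) came before Sparc (623 ± 14.1), then Postn (108 ± 12.6), Spon2 (86.0 ± 12.9), Spp1 (58.2 ± 3.02), Tnc (46.2 ± 7.68), Thbs2 (25.5 ± 3.90) and Thbs1 (5.60 ± 0.794). Fn1 overlapped Sparc and Postn overlapped Spon2, while Tnc stood clear of Thbs2. At day 0 the order was the same in both lines, from Sparc through Fn1, Postn, Spp1, Thbs2, Tnc and Thbs1 to Spon2. Sparc had 783 ± 26.5 CPM per kilobase in FHL2 and 699 ± 13.7 in control, and Spon2 had 4.90 ± 0.564 in FHL2 and 10.9 ± 0.396 in control. Only Fn1 and Postn overlapped as neighbours at day 0, in both lines. Spon2 was the lowest of the 8 tested genes at day 0, and at day 2 it stood above Tnc and both thrombospondins in each line.

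Genes on the other strand share exon bases with Tnc (176 bases), Fn1 (292 bases) and Thbs1 (208 bases) in the annotation used, and those genes had 3, 103 and 0 counts in all 12 libraries. Gm42793, on the same strand as Spp1, shares 309 of its 1648 exon bases and had 53 counts in all. The labels do not give the strand setting of the authors' counting, so reads of such partners cannot be told apart from the members.

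Of 9729 genes ranked (mean level 5 CPM or more), Afap1, an actin-filament-associated protein, followed Tnc most closely over the 12 libraries (Pearson r = 0.949 between log2 levels, as a description). Epb41l1, a membrane skeleton protein (r = 0.941), Fbln2, a fibulin of the matrix (r = 0.929), Arid1b, a chromatin remodeller subunit (r = 0.912), and Flt1, a VEGF receptor (r = 0.909), came next. All 5 had their lowest mean in FHL2 at day 2, where Tnc was lowest. They were picked for likeness to Tnc over these same libraries, so this is no separate result. Flt1, for example, had 9.19 CPM in FHL2 and 17.3 CPM in control at day 2, and 17.6 CPM in FHL2 and 18.4 CPM in control at day 0. The closest genes to the other members were Cblb for Fn1 (r = 0.969), Cbfb for Thbs1 (0.994), Senp5 for Thbs2 (0.993), Naa50 for Postn (0.998), Pdgfa for Sparc (0.941), Dld for Spp1 (0.994) and Errfi1 for Spon2 (0.994). The genes of a pair share their libraries and, for most pairs, the split between days.

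Of 42 other matricellular genes, 32 were tested. Between day 2 and day 0, 14 rose and 6 fell in FHL2, and 14 rose and 7 fell in control, with median log2 changes of 0.34 and 0.50, beside -0.11 and -0.14 over all genes. Of all genes, 25.8% were higher and 30.2% lower in FHL2, and 26.3% higher and 30.8% lower in control. With the GC offset the counts were 8 higher and 7 lower in FHL2, and 9 higher and 8 lower in control. In control the offset fit called 5644 of 14435 genes, against 8246 without the offset, with a median log2 change of -0.03. Its calls over all genes were not split by direction, so nothing is read from the shift of the list. Ecm1, a matrix adaptor protein, rose to 2686 CPM in FHL2 at day 2, against 239.8 CPM at day 0, and to 3042 CPM in control at day 2, against 256 CPM at day 0 (log2 3.49 and 3.57, adjusted p = 3.12e-12 and 2.34e-12). Angptl4, a secreted inhibitor of lipoprotein lipase, rose by 2.31 in FHL2 and 2.45 in control on the log2 scale (adjusted p = 2.44e-10 and 1.28e-10). Ccn4, a Wnt-induced CCN protein, fell by 2.58 in FHL2 (adjusted p = 8.16e-07). Its control mean fell too, from 78.6 CPM at day 0 to 18.4 CPM at day 2. Rspo3, a Wnt agonist, fell by 2.85 in control (SE 0.92, adjusted p = 0.0157), from 7.05 ± 1.63 CPM to only 0.931 ± 1.61 CPM. The SD at day 2 exceeds the mean, so the control libraries were uneven at this low level. The size of the Rspo3 fall is therefore uncertain. In FHL2 the Rspo3 mean was 13.1 CPM at day 0 and 4.88 CPM at day 2. FHL2 over control at day 2, 3 of the 32 fell and the other 29 did not pass, with a median log2 change of -0.09 beside 0.01 over all genes and 2.07% of all genes called. In the fit of the day 2 libraries alone 0 were called, where 39 of all genes were called, against 299 in the reported fit. The 3 were Angptl4 (351 against 507 CPM, log2 -0.53, adjusted p = 0.00653), Fbln2 (819 against 1161 CPM, log2 -0.50, adjusted p = 0.0103) and Tgfbi, a fasciclin-domain relative of Postn (197 against 262 CPM, log2 -0.42, adjusted p = 0.0474). At day 0 edgeR called 0 of 32, DESeq2 2 and limma-voom 0, where they called 7, 93 and 18 of all genes. In edgeR 5 of the 32 had an unadjusted p under 0.05, a share that was not counted over all genes, so nothing is read from it.

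Of 28 receptors of these proteins, 21 were tested, and 6 rose and 8 fell at day 2 in each line, with median log2 changes of -0.38 in FHL2 and -0.48 in control, beside -0.11 and -0.14 over all genes. The share called, over both directions, was 56.0% of all genes in FHL2 and 57.1% in control. With the GC offset the receptor counts were 8 higher and 5 lower in FHL2 and 9 higher and 6 lower in control. That fit called 5644 of 14435 genes in control, and its calls over all genes were not split by direction. Nothing is therefore read from the changed balance. Sdc4, a syndecan that joins integrins at fibronectin contacts, rose by 2.35 in FHL2 and 2.34 in control on the log2 scale (adjusted p = 1.51e-08 and 1.40e-08). Itgav, the alpha-v integrin chain that binds RGD sites, fell, with log2 changes of -2.31 and -2.34 (adjusted p = 4.94e-06 and 4.35e-06). Sdc1, another syndecan, rose by 1.44 in FHL2, and Lrp1, the endocytic receptor that clears thrombospondins, rose by 1.49 in control (adjusted p = 4.73e-09 and 1.02e-06). The mean of each was also higher at day 2 in the other line. Sdc1 had 435 against 156 CPM in control, and Lrp1 had 2207 against 1068 CPM in FHL2. FHL2 over control at day 2, the median log2 change was -0.15 and 2 of 21 fell, Lrp1 (2207 ± 484 against 3436 ± 123 CPM, log2 -0.64, adjusted p = 0.0370) and Sdc1 (319 ± 8.96 against 435 ± 13.4 CPM, log2 -0.45, adjusted p = 0.00932), where 2.07% of all genes were called. Without FHL2 replicate 2 of day 2, or in the day 2 libraries alone, 0 of 21 were called, and 1 was called without FHL2 replicate 3, control replicate 1 or control replicate 2 of day 2. Those fits called 146, 39, 328, 197 and 227 of all genes, in that order, against 299 in the reported fit. At day 0 edgeR called 0 of 21, DESeq2 2 and limma-voom 1, where they called 7, 93 and 18 of all genes. In edgeR 4 of the 21 had an unadjusted p under 0.05, a share that was not counted over all genes, so nothing is read from it.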

How the data were processed

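Raw counts per Ensembl gene were deposited by the authors in a table of 12 libraries made with a stranded polyA kit. The submitters' processing notes name GRCm39 (mm39), HISAT2 2.2.1 and HTSeq 0.11.0, besides Trimmomatic 0.39, FastQC 0.11.9, limma and R 4.1.0, without order, settings or strand mode. The test was edgeR's quasi-likelihood F test (edgeR 4.0.16, R 4.3.3) on 14435 genes kept by filterByExpr, with TMM factors and a joint fit of the 4 group means over all 12 libraries. P-values are 2-sided and Benjamini-Hochberg adjusted over all genes tested. Code was tested on simulated data. Exon length and GC content came from GENCODE M21 (GRCm38), which held 99.8% of tested genes; the GC offset is a lowess curve (span 0.3) per library. DESeq2 1.42.0 and limma-voom (limma 3.58.1) were alternatives.

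Members and the 3 gene lists were chosen with earlier results of these data known. Named genes are all members, up to 3 called genes per list and comparison with the largest log2 change at a mean of at least 5 CPM, and the closest genes by correlation (5 for Tnc, 1 for each other member). Floors and counting errors cover counting error only, while the 2 SE ranges come from the fit and include the spread among libraries. In edgeR the SE is the absolute log2 change divided by the square root of the F statistic. A 2 SE range is therefore not a confidence interval at a set level. The spread differed between days, with a biological coefficient of variation of 0.390 at day 2 and 0.120 at day 0 in separate fits and 0.283 in the joint fit. A gene that this rule names is not reported here.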

Additional observations from a re-analysis of the deposited data

Results flagged for a closer look

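The FHL2 over control difference of Tnc differed between the days by -1.30 on the log2 scale, day 2 minus day 0. It drew attention because the difference itself passed the threshold in the fit over all genes and the direction of the line difference turned round between the days. Tnc is treated as chosen on these same values, so this is a description of the value and not support for it. The 3 day 2 libraries with the fewest genes were FHL2 replicates 1 and 2 and control replicate 3. Without them the value was -1.66. That fit keeps a single FHL2 library of day 2, replicate 3, which was the lowest of its group for Tnc. It also leaves out the control library of day 2 with the lowest Tnc level, so the larger value is not a firmer one.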

How the results depend on the processing

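Of 712 values of single members under alternatives, 643 kept direction and side of the threshold, 34 lost a call, 7 gained one and 28 turned direction. The causes were not tested. Members called between the lines at day 0 were 1 in the reported fit and 2 in a fit of the day 0 libraries alone, with or without the replicate block, the added call being Tnc; leaving out 1 library gave 0 to 1. At day 2 they were 2, and 1 in a fit of the day 2 libraries alone; leaving out 1 library gave 1 to 2. For the difference between the days they were 1, and 2 without a filter on low counts or without the 3 libraries of day 2 that detected fewest genes, the added call being Fn1; leaving out 1 library gave 0 to 1, and the call of Tnc held without 3 of the 12 libraries (FHL2 day 2 replicate 1 and control day 2 replicates 2 and 3). Called genes among all tested ran from 1 to 648 at day 0 (7 as reported), from 39 to 1606 at day 2 (299), from 0 to 243 for the difference between the days (1), from 5246 to 9063 for FHL2 (8087) and from 5627 to 10143 for control (8246) between days.

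Log2 values that turned direction were small in the reported fit. Fn1 between the lines at day 0 was 0.0026 with upper-quartile scaling, 0.017 with the day 0 libraries alone, 0.0031 with the replicate block added, 0.0038 without the 3 libraries, and -0.12 to 0.11 without 1 library. Postn there was 0.033 with the GC offset and -0.22 to 0.058 without 1 library, and -0.14 at day 2 without the 3 libraries and -0.013 to 0.17 without 1. Thbs2 at day 0 ran from -0.027 to 0.065 and Spp1 from -0.19 to 0.077 without 1 library. Between days, Tnc in control was -0.0047 with RLE scaling, -0.0067 with no filter, -0.0046 with DESeq2, -0.42 with the GC offset in either set of libraries (-0.418 in all, -0.422 in control alone), and -0.053 to 0.21 without 1 library. Both values with the GC offset were called. Fn1 in FHL2 was -0.37 with the GC offset, -0.38 with it in FHL2 alone, -0.42 without the 3 libraries, and -0.061 to 0.30 without 1. Postn for the difference between the days was -0.085 without the 3 libraries.

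Same-numbered libraries did not deviate together over all genes (12 correlations from -0.130 to 0.0860), which cannot exclude pairing for some genes. With the replicate block in the fit of all libraries the members called were 1, 2, 7, 7 and 1 over the 5 comparisons, as without it. In the day 0 libraries alone the block raised the genes called between lines from 246 to 648. In the day 2 libraries alone it raised them from 39 to 53, and in all libraries it lowered the day 2 calls from 299 to 209. Whether the numbers mark pairs was not settled. The block with only 1 day's libraries and the GC offset with only 1 line's were added after seeing the data. Counts of the 3 lists moved by over 1.5 times in 48 of 267 alternatives; between the lines they ran at day 2 from 0 to 7 for other matricellular genes, 0 to 6 for receptors and 1 to 7 for enzymes, and at day 0 from 0 to 8, 0 to 5 and 0 to 9. The lowest counts, 264 for Thbs1 and 267 for Spon2, carry counting errors of 6.15% and 6.12%.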

Other observations

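Enzymes that cut, cross-link or phosphorylate matricellular proteins were tested for 21 of 23 listed genes. FHL2 over control at day 2, 4 fell and 1 rose, where 2.07% of all genes were called. In the day 2 libraries alone, or without FHL2 replicate 2 of day 2, 1 was called, and without control replicate 1 of day 2, 2 were. Those fits called 39, 146 and 197 of all genes, in that order, against 299 in the reported fit. Tgm2, a transglutaminase that cross-links fibronectin, was listed at 0.303 ± 0.524 CPM in FHL2 and 14.7 ± 1.78 CPM in control at day 2 (SD, n = 3 each), with counts in 1 of the 3 FHL2 libraries (edgeR adjusted p = 0.00635). The FHL2 libraries at 0 were replicates 1 and 2, which are among the 3 day 2 libraries that detected fewest genes. Adamts4, a matrix metalloprotease, fell to 8.55 ± 2.33 CPM in FHL2 at day 2, against 20.9 ± 5.41 CPM in control (log2 -1.29, adjusted p = 0.0210). Ctsk, the cysteine protease cathepsin K, rose to 40.2 ± 10.2 CPM in FHL2 at day 2, against 17.6 ± 5.41 CPM in control (log2 1.18, adjusted p = 0.0146). This call was lost without FHL2 replicate 2 or control replicate 1 of day 2 and in the day 2 libraries alone. At day 0, 1 of 21 was called, the gelatinase Mmp9, which fell by 0.72 on the log2 scale (60.8 CPM in FHL2 against 100.3 CPM in control, adjusted p = 0.0356), where 0.0485% of all genes were called. The call was lost when any 1 of the 6 day 0 libraries was left out and with upper-quartile scaling.

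Day 2 over day 0, 4 of these genes rose and 9 fell in FHL2, and 5 rose and 8 fell in control, close to the share of all genes called (56.0% in FHL2 and 57.1% in control). Adamts5, an aggrecanase, fell, with a log2 change of -2.63 in FHL2 and -2.24 in control (adjusted p = 2.80e-07 and 1.03e-06). In FHL2, Tgm2 fell to 0.303 ± 0.524 CPM at day 2, against 2.85 ± 0.452 CPM at day 0 (adjusted p = 0.00474), and Adamts4 had a log2 change of -1.32 (adjusted p = 0.000483). In control, Ctsk had a log2 change of -1.31 (adjusted p = 0.000133). Control means of Adamts4 were 20.9 CPM at day 2 and 32.3 CPM at day 0. Those of Tgm2 in control were 14.7 CPM at day 2 and 5.65 CPM at day 0. FHL2 means of Ctsk were 40.2 CPM at day 2 and 60.7 CPM at day 0.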
